A study of Mus musculus with 24 samples.

Results

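The RNAs described here are small, stable RNAs that work as structural parts of particles and are not translated. The set holds 7 gene symbols: n-R5-8s1 (5.8S ribosomal RNA), Rn7s1 and Rn7s6 (7SL RNA), Rny1 and Rny3 (Y RNAs), Rn7sk (7SK RNA) and Rmrp (the RNA of RNase MRP). Through the GENCODE M21 annotation they matched 8 of the 55335 gene IDs in the files, because Rmrp is carried by 2 gene models. The genes were selected on their FPKM, which was high in 1 group, the MC38 KO PBS tumours. Differences of the members that involve that group are therefore given as a description, without a test.

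RNA was measured by sequencing in 24 libraries from mouse tumours of 2 lines, MC38 (colon carcinoma) and B16 (melanoma). In each line the tumour cells were parental with intact CHEK2 (WT) or had CHEK2 knocked out (KO), and the mice received PBS or an anti-PD-1 antibody, which blocks an inhibitory receptor of T cells. This gave 8 groups of 3 libraries: MC38 WT PBS, MC38 WT anti-PD-1, MC38 KO PBS, MC38 KO anti-PD-1, and the same 4 in B16. The deletion is described for the tumour cells and not for the host, whose cells are also part of the tissue. The strain, age and sex of the mice, the number of knock-out clones and the times of dosing are not given in the sources used here. The labels do not name separate animals for the 3 libraries of a group, so the p-values measure only the spread between these samples, which may be technical.

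As background, 5.8S rRNA is cut from the long RNA polymerase I transcript and sits in the large ribosomal subunit. The 7SL, Y, 7SK and RNase MRP RNAs are made by RNA polymerase III, whose transcripts typically end in a run of T. 7SL is the scaffold of the signal recognition particle (SRP), which brings ribosomes making secreted proteins to the endoplasmic reticulum. 7SK holds the elongation factor P-TEFb inactive, Y RNAs bind the Ro60 protein, and RNase MRP cuts precursor rRNA upstream of 5.8S. None of these RNAs carries the long poly(A) tail of most messenger RNAs.

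How far reads can be assigned to each gene depends on its sequence. Transcripts were taken from GENCODE M21 on build GRCm38. The 7SL genes Rn7s1, on chromosome 12, and Rn7s6, on chromosome 6, are noncoding genes of 1 exon, 300 and 291 bases long. They share their first 214 bases with 3 differences (98.6% identity), and then have unlike remainders of 86 and 77 bases.

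A further 7SL gene on chromosome 12, Rn7s2, is identical to Rn7s1 over all 300 bases. Reads from Rn7s1 and Rn7s2 cannot be told apart, and those from the shared 5′ stretch may also fall to Rn7s6. In all, 24 gene models shared at least 50 bases with Rn7s1, of which 14 reached 1 FPKM in at least 1 library. FPKM, the deposited unit, is a fragment count scaled by transcript length and library size.

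The Y RNA genes lie near each other on chromosome 6. Rny1 (chr6:47788069-47788180, minus strand) and Rny3 (chr6:47781624-47781725, plus strand) are 112 and 102 bases long and align with 71.4% identity. Their sequences are written 5′ to 3′ as DNA, and capitals mark a run of 12 bases that both hold. They are shown because, unlike the 7SL genes, they hold no longer run in common.
Rny1: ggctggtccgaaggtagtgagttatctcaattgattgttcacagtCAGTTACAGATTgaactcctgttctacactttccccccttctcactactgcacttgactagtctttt
Rny3: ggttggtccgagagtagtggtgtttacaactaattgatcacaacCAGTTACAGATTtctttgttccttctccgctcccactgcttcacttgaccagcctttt

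Both Y RNA transcripts end in 4 T, Rn7sk ends in 3 and Rn7s1 in 2, while Rn7s6 and Rmrp end in 0. Only 8.5% of 8106 noncoding genes with a single transcript of 90 to 340 bases end in at least 3 T. Rny1 has 2 near-identical copies elsewhere (at least 90% identity over at least 90% of its length), of which Gm26124 was listed at 0 in every library and Gm26168 reached at most 0.292 FPKM. Rny3 has none among the annotated transcripts.

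Rn7sk (chr9:78175303-78175633, minus strand) is 331 bases long and has no near-identical annotated copy. Its first 120 bases (chr9:78175514-78175633, minus strand) are shown because they hold every GATC of the transcript, marked in capitals. The hairpin at this end is known to bind HEXIM, the protein through which 7SK holds P-TEFb.
Rn7sk: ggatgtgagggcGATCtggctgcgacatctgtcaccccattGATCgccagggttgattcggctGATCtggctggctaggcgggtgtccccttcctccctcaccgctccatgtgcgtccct

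Rn7sk holds 3 GATC, a motif that reads the same on both strands. Rn7s1 holds 4, n-R5-8s1 and Rn7s6 hold 2 each, Rny3 holds 1, and Rny1 and Rmrp hold 0. Among the 8106 noncoding transcripts of like length, 2.7% hold at least 3. A match of letters is a description of the transcript and does not show that the site is bound. Of the remaining members, n-R5-8s1 (chr18:73533403-73533550, minus strand, 148 bases) is annotated as rRNA. No near-identical copy of it was found among the annotated transcripts, the only sequences searched. Copies in unannotated sequence were not examined, so its FPKM need not come from this locus alone. The Rmrp ribozyme model (chr4:43492788-43493058, minus strand, 271 bases) lies inside a second Rmrp model of 281 bases annotated as lincRNA. It also overlaps 159 bases of the protein-coding gene Ccdc107 on the opposite strand.

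In the MC38 KO PBS tumours all 7 genes stood above every one of the other 21 libraries, as the plot of values by library shows. Of the 15655 genes that reached 1 FPKM in 3 or more of the 24 libraries, 342 (2.18%) had this pattern. Since the members were chosen for it, nothing is read from their count. Only 6 genes had a lowest KO PBS value more than 2-fold above the highest of the other 21. They were n-R5-8s1, Rn7s1, the rRNA model Gm24601, the snRNA model Gm24407, and the miRNA models Gm47287 and Gm47299, the last pair lying within the 7SL genes Rn7s1 and Rn7s2.

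**Figure D1:**
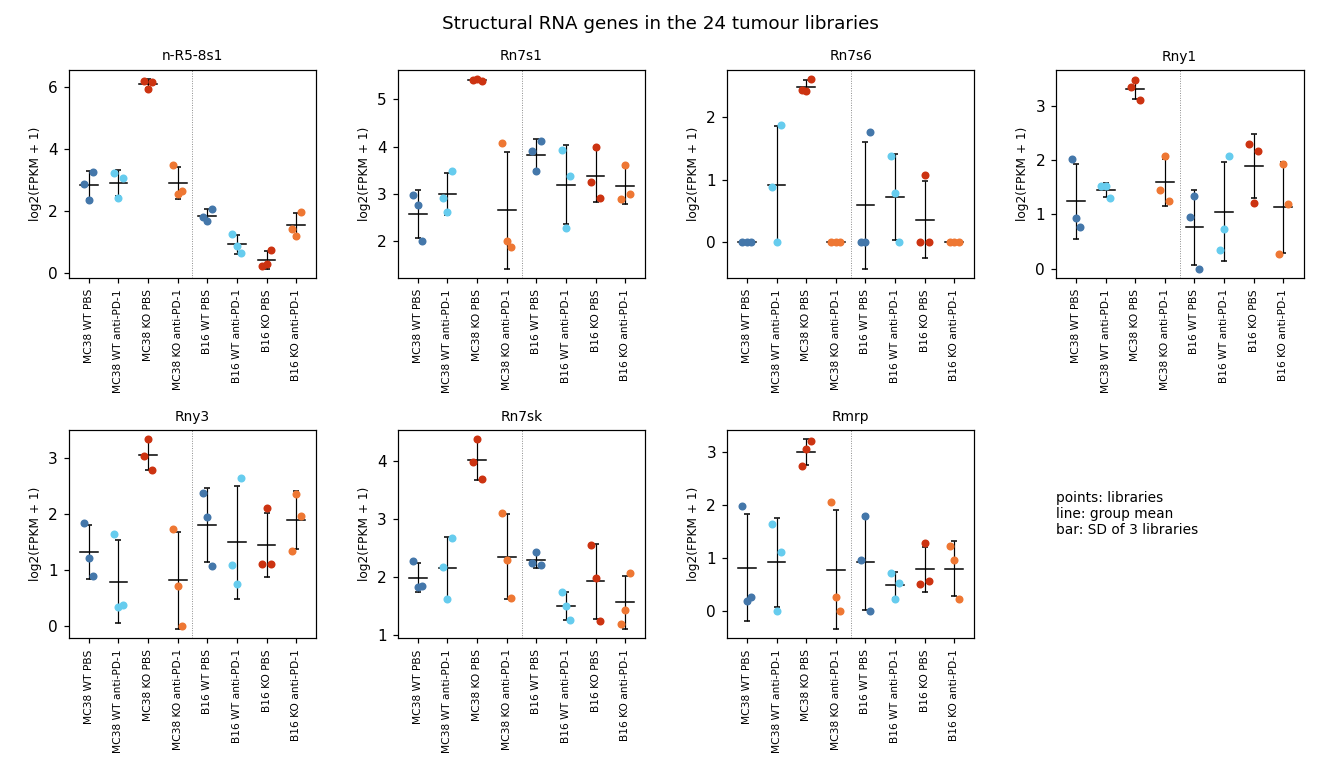
Values of the 7 structural RNA genes in each of the 24 libraries as log2(FPKM + 1), by group, with points for libraries, lines for group means and bars for the SD of 3 libraries (each panel has its own vertical scale). In every panel the 3 MC38 KO PBS libraries lie above all other libraries, and the closest approach is Rny3, at 5.94 FPKM in the lowest of them and 5.27 FPKM in 1 B16 WT anti-PD-1 library.

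The 5.8S gene n-R5-8s1 showed the widest gap. Its MC38 KO PBS libraries held 72.6, 60.3 and 71.0 FPKM, a mean of 68.0. The other MC38 libraries held 6.30, 4.14 and 8.60 FPKM in WT PBS, 8.25, 4.36 and 7.32 FPKM in WT anti-PD-1, and 10.3, 4.85 and 5.24 FPKM in KO anti-PD-1. No value of those 3 groups came within 5.87-fold of the lowest KO PBS library, and the 3 groups overlapped one another. The ratio of means was 10.7 against WT PBS and 10.02 against KO anti-PD-1. In fragment equivalents (FPKM times length, divided by the amount 1 fragment is worth), KO PBS libraries held 142 to 200.7 and WT PBS libraries 11.4 to 19.5. Gm24601, also annotated as rRNA but only 72.2% identical in sequence, held 7.13 ± 1.93 FPKM in MC38 KO PBS (SD, n = 3) and at most 1.05 FPKM in the other MC38 libraries.

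Rn7s1, one of the 7SL genes, was close to equal in the 3 MC38 KO PBS libraries, at 41.4, 42.1 and 41.1 FPKM. In WT PBS it held 6.79, 5.77 and 2.98 FPKM, in WT anti-PD-1 6.51, 5.08 and 10.2 FPKM, and in KO anti-PD-1 15.8, 2.99 and 2.65 FPKM. The first KO anti-PD-1 library stood apart from the other two of its group and was the highest outside KO PBS in MC38. The mean of KO PBS was 8.01 times that of WT PBS and 5.82 times that of KO anti-PD-1. B16 libraries held 14.0, 10.1 and 16.3 FPKM in WT PBS, 14.2, 3.84 and 9.37 FPKM in WT anti-PD-1, 8.45, 14.98 and 6.47 FPKM in KO PBS, and 6.38, 11.2 and 7.004 FPKM in KO anti-PD-1. All 4 B16 groups overlapped.

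Its identical copy Rn7s2 gave nearly the same pattern, at 32.3, 31.7 and 30.4 FPKM in MC38 KO PBS and at most 15.6 FPKM in the other MC38 libraries. Rn7s6, the 7SL gene with the unlike 3′ end, held 4.39, 4.38 and 5.10 FPKM in MC38 KO PBS. It was listed at 0 in all 3 libraries of MC38 WT PBS and of MC38 KO anti-PD-1, and at 0.844, 0 and 2.66 FPKM in WT anti-PD-1. In B16, 8 of 12 libraries were listed at 0 and the highest was 2.39 FPKM. No fold is given for Rn7s6, since a listed 0 can arise when shared reads are assigned to another copy.

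Short miRNA models lie wholly or almost wholly within the 7SL genes and were given values of their own. Gm47287, which covers 70 bases inside Rn7s1, held 89.1 ± 3.14 FPKM in MC38 KO PBS (SD, n = 3) and at most 29.6 FPKM elsewhere. Gm47299, which overlaps 77 bases of Rn7s2, held 101.3 ± 1.62 FPKM in MC38 KO PBS (SD, n = 3) and at most 8.97 FPKM elsewhere. Gm47305, at 70 bases inside Rn7s2, went the other way, at 0.140 FPKM in MC38 KO PBS against up to 30.4 FPKM in MC38 KO anti-PD-1. The ratio between these models thus differed between libraries.

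To lessen the effect of how reads were divided between these models, FPKM times length in kilobases (length-scaled FPKM) was summed. The sum took the 3 7SL genes and the 5 models nested in them, and was chosen after the values were seen. Other models that share at least 50 bases with Rn7s1 were left out. MC38 KO PBS libraries held 37.6 ± 0.551 length-scaled FPKM (SD, n = 3), from 37.0 to 38.0. The other 9 MC38 libraries ranged from 2.09 to 13.9 with a median of 3.60, the highest again being the first KO anti-PD-1 library. B16 libraries ranged from 2.56 to 10.6 with a median of 6.49. The summed 7SL signal of MC38 KO PBS lay above all other libraries. Rn7s1 and Rn7s6 were chosen for high values in KO PBS, and Rn7s2 shares its reads with Rn7s1. The nested models were picked once values were known, so nothing is read from that gap. The sum rested on 499.8 to 855.5 fragment equivalents in KO PBS and 34.99 to 206 in the other 21 libraries.

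**Figure D2:**
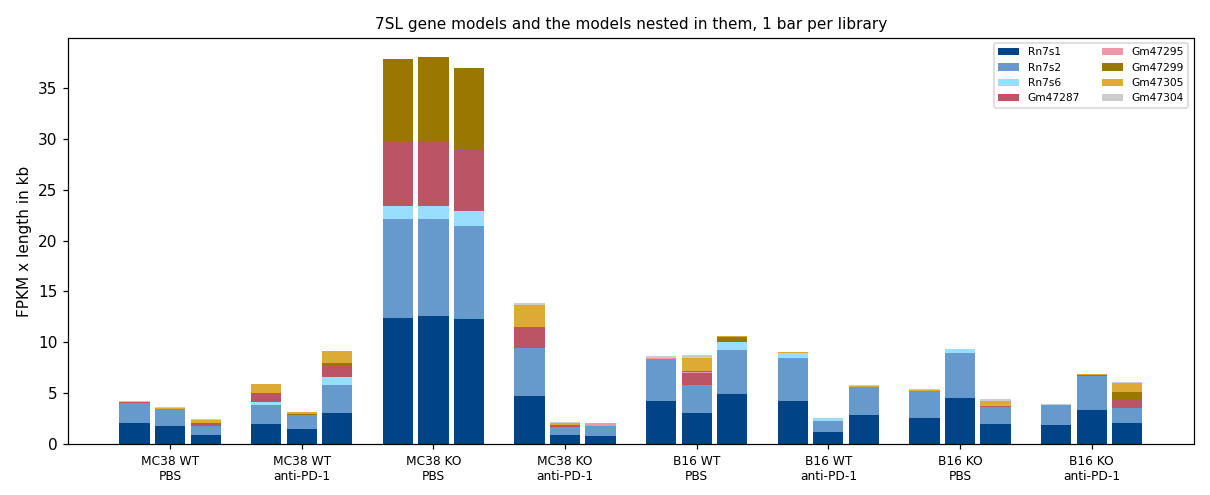
Length-scaled FPKM (FPKM times length in kilobases) for Rn7s1, Rn7s2, Rn7s6 and the 5 miRNA models nested in them, stacked, with 1 bar for each of the 24 libraries. The 3 MC38 KO PBS bars reach 37.0 to 38.0, the highest other bar reaches 13.9, and Gm47287 and Gm47299 fill a part of the KO PBS bars.

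The Y RNAs, which bind Ro60, were lower in level. Rny1 held 9.11, 10.05 and 7.56 FPKM in MC38 KO PBS. In the other MC38 groups it held 3.06, 0.910 and 0.692 FPKM (WT PBS), 1.87, 1.87 and 1.46 FPKM (WT anti-PD-1), and 1.73, 3.23 and 1.37 FPKM (KO anti-PD-1). These 3 groups overlapped, and all lay below KO PBS. In B16, Rny1 ranged from 0 to 3.89 FPKM with a median of 1.30, and the highest library belonged to KO PBS.

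Rny3 held 7.22, 9.13 and 5.94 FPKM in MC38 KO PBS, against 2.59, 1.33 and 0.857 FPKM in WT PBS. It held 2.14, 0.275 and 0.303 FPKM in WT anti-PD-1 and 2.32, 0.650 and 0 FPKM in KO anti-PD-1. B16 libraries reached 5.27 FPKM, with a median of 2.20, so the gap to MC38 KO PBS was only 1.13-fold. Both Y RNAs rested on few reads: MC38 KO PBS libraries held 13.5 to 25.3 fragment equivalents of Rny1 and 9.73 to 20.9 of Rny3. WT PBS libraries held 1.19 to 5.03 and 1.34 to 3.89, so no fold is given for either.

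Rn7sk, the RNA that keeps P-TEFb inactive, held 14.8, 19.7 and 11.9 FPKM in MC38 KO PBS. In WT PBS it held 3.83, 2.54 and 2.59 FPKM, in WT anti-PD-1 3.51, 2.05 and 5.39 FPKM, and in KO anti-PD-1 7.60, 3.88 and 2.10 FPKM. The mean of KO PBS was 5.17 times that of WT PBS and 3.41 times that of KO anti-PD-1, with no overlap. B16 libraries lay between 1.26 and 4.81 FPKM with a median of 2.64. Of the 12 gene models that share at least 50 bases with Rn7sk, 3 reached 1 FPKM in any library.

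Rmrp, the RNA of RNase MRP, held 5.66, 7.34 and 8.21 FPKM in MC38 KO PBS by its ribozyme model. WT PBS libraries held 2.97, 0.143 and 0.198 FPKM, WT anti-PD-1 libraries 2.12, 0 and 1.15 FPKM, and KO anti-PD-1 libraries 3.18, 0.203 and 0 FPKM. In WT PBS and KO anti-PD-1 the first library stood well above the other two, and no library of the 3 groups reached KO PBS. B16 libraries ranged from 0 to 2.47 FPKM. The longer lincRNA model of Rmrp never exceeded 0.143 FPKM and did not reach 1 FPKM in 3 of the 12 libraries of a line, the filter for testing, so 7 of the 8 gene models were tested in each line. Strand is not stated in the labels, so reads from Rmrp and from Ccdc107 cannot be separated where they overlap. Ccdc107 itself held 7.25 ± 1.25 FPKM in MC38 KO PBS and 7.75 ± 0.280 FPKM in MC38 WT PBS (SD, n = 3).

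Side by side, on the log2(FPKM + 1) scale the differences of group means were 3.27 for n-R5-8s1, 2.84 for Rn7s1, 2.49 for Rn7s6, 2.19 for Rmrp, 2.06 for Rny1, 2.03 for Rn7sk and 1.74 for Rny3. These values depend on the added 1 where levels are low, as in WT PBS for Rn7s6, listed at 0, and for Rmrp, Rny1 and Rny3. With 0.1 added in place of 1 they were 5.56 for Rn7s6, 3.55 for Rmrp, 2.72 for Rny1 and 2.26 for Rny3, so no order among the members is read from them.

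Other measures moved with the same 3 libraries. The 8 T cell markers, 7 of which were called lower in MC38 KO PBS than in WT PBS by limma (23.4% of all genes were called), summed to 3.86 to 5.94 FPKM in KO PBS. They summed to between 24.03 and 42.7 FPKM in the other MC38 groups, and none was at 0 in all 3 libraries of any group. The 8 macrophage markers summed to 291 to 779 FPKM in KO PBS against 922 to 1417 FPKM in the others, with 4 called lower. In bulk tissue, fewer cells of a type and less RNA per cell cannot be told apart. The part of these differences in the levels of the structural RNAs was not tested.

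The same genes could be tested in comparisons that do not use the mean of MC38 KO PBS. In the MC38 comparisons those libraries still entered the filter on low values and the estimate of spread. The members were chosen by contrasts of MC38 KO PBS with WT PBS and with KO anti-PD-1. Values of WT PBS and KO anti-PD-1 therefore took part in the choice. The MC38 comparisons below use these groups, so nothing is read from how many members were called in them. Log2(FPKM + 1) was fitted with limma over all genes, with Benjamini-Hochberg adjustment over all of them. Rn7s6 passed the MC38 filter through KO PBS, since 3 of the 4 MC38 libraries in which it reached 1 FPKM were of that group. The other 6 genes pass it over the remaining 9 MC38 libraries as well. In MC38 under anti-PD-1, none of these 6 was called between KO and WT tumours, while 12.1% of all tested genes were. Their differences ran from -0.36 (Rn7s1) to 0.19 (Rn7sk) with limma adjusted p from 0.688 to 0.999. Rn7s6 differed by -0.92 ± 0.342 (SE, unadjusted p = 0.0215, limma adjusted p = 0.108). For n-R5-8s1 the difference was -0.000895 ± 0.291 (SE), with 6.79 FPKM on average in KO and 6.64 FPKM in WT. Leaving out 1 library could add a call: without the second WT anti-PD-1 library Rn7s6, which passed the filter through KO PBS, was called, and without the first KO anti-PD-1 library Rn7s1 was.

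Anti-PD-1 against PBS in WT tumours of MC38 gave no called member either, and 0% of all genes were called by limma, with 1953 genes at an unadjusted p under 0.05. Among the 6 members other than Rn7s6, 5 differences were positive, from -0.53 (Rny3) to 0.43 (Rn7s1). Adjusted p by limma ran from 0.638 to 0.955 for these 6, and for Rn7s6, at a difference of 0.92, it was 0.274.

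In B16 the 5.8S gene n-R5-8s1 was the only member called in any comparison. It was lower in KO tumours under PBS, a call that rested on few reads and on every library, as given below. WT PBS libraries held 2.49, 2.16 and 3.17 FPKM and KO PBS libraries 0.177, 0.206 and 0.675 FPKM. Under anti-PD-1, WT libraries held 1.39, 0.811 and 0.549 FPKM and KO libraries 1.66, 1.30 and 2.93 FPKM. Under PBS the genotypes did not overlap and KO was the lower, whereas under anti-PD-1 they overlapped and the KO mean was the higher.

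The limma difference of KO from WT under PBS was -1.42 ± 0.235 (SE, adjusted p = 0.0375), in a comparison in which 0.47% of all genes were called. This call was lost without any one of the 6 libraries (adjusted p 0.0516 to 0.138) and under 3 of 8 other settings. The KO PBS libraries held only 2.30 fragment equivalents of n-R5-8s1 in all and the WT PBS libraries 18.1, so no fold is given. In MC38, KO PBS was the highest group, but the gene was selected for that, so its direction is not compared between the lines. The interaction between line, genotype and treatment was not tested, because it would use the MC38 KO PBS libraries.

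Within KO tumours of B16, n-R5-8s1 was higher under anti-PD-1 than under PBS, by 1.11 ± 0.235 on the log2(FPKM + 1) scale (SE, limma adjusted p = 0.00364). It was higher in 3 of 3 libraries, and 43.9% of all genes were called in this comparison. The genotype by treatment interaction was 2.04 ± 0.333 (SE, limma adjusted p = 0.00263), where 23.5% of genes were called. Both calls held in every one of the 14 and 19 alternatives run, with adjusted p of 0.00252 to 0.0150 and 0.000807 to 0.01. The 3 KO anti-PD-1 libraries also stood apart in other ways: their FPKM summed to 375193 to 398474 against at most 344059 in the other 21 libraries. Their T cell markers summed to 7.19 to 24.2 FPKM against at most 6.17 FPKM in the other B16 libraries, and their skeletal muscle markers to 9.25 to 1925 FPKM against at most 2.99 FPKM. The part of these differences in the level of n-R5-8s1 was not tested.

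The other 6 members gave no call in any B16 comparison. Rny1 had the largest difference among them under PBS, 1.13 ± 0.542 in KO against WT (SE, limma adjusted p = 0.407). Under anti-PD-1, where 40.8% of all genes were called between KO and WT, 0 of 7 members were. The lowest limma adjusted p was 0.0574, for n-R5-8s1. Anti-PD-1 against PBS in WT tumours gave 0 called members and 0% of all genes by limma, with 281 genes at an unadjusted p under 0.05. Among these, n-R5-8s1 differed by -0.93 ± 0.235 (unadjusted p = 0.00233, limma adjusted p = 1) and Rn7sk by -0.79 ± 0.304 (unadjusted p = 0.0249, limma adjusted p = 1). Averaged over treatments, KO and WT differed in 26.5% of all genes and in 0 of 7 members.

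**Figure D3:**
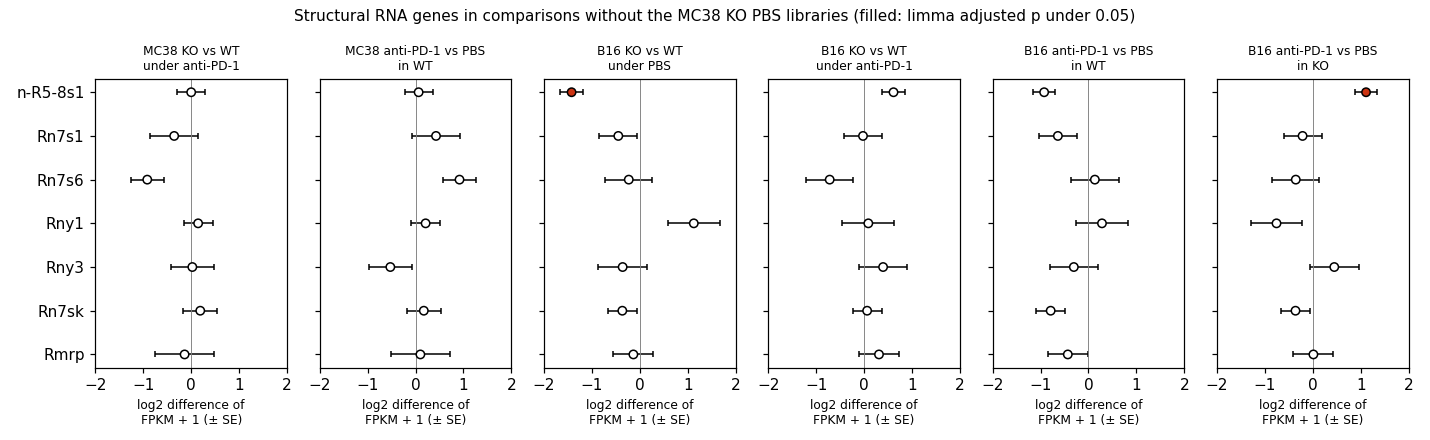
Differences of group means on the log2(FPKM + 1) scale for the 7 structural RNA genes in the 6 simple comparisons that do not use the mean of MC38 KO PBS, with bars for the SE and filled points for a limma adjusted p under 0.05. The 2 filled points are n-R5-8s1 in B16, at -1.42 for KO against WT under PBS and at 1.11 for anti-PD-1 against PBS in KO.

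Between the lines, WT tumours of MC38 held more n-R5-8s1 than those of B16, by 1.49 ± 0.196 on the log2(FPKM + 1) scale (SE, limma adjusted p = 1.14e-06). It was the 1 called member of 7, and 72.1% of all genes were called. Rn7s1 lay lower in MC38 than in B16, by -0.72 ± 0.341 (SE, limma adjusted p = 0.0637), and was called as well without the third MC38 WT anti-PD-1 library or without the second B16 WT anti-PD-1 library. Line and any batch cannot be told apart here. The difference between lines in the KO effect under anti-PD-1 gave 0 called members beside 31.8% of all genes. That in the anti-PD-1 effect in WT gave 0 called members beside 0% of all genes, with 1097 genes at an unadjusted p under 0.05 by limma.

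The members were set against one another outside MC38 KO PBS, over the 6 genes with values above 0 in at least 6 libraries (all but Rn7s6). Over the 9 MC38 libraries, the 15 pairs had Pearson r of log2(FPKM + 1) from -0.14 to 0.80 with a median of 0.52. Without the first KO anti-PD-1 library, which was high in n-R5-8s1, Rn7s1, Rn7sk and Rmrp, the median was 0.41 over 8 libraries. Over the 12 B16 libraries r ran from -0.59 to 0.43 with a median of 0.09. The points share library and depth, and the values of Rny1, Rny3 and Rmrp rest on few reads.

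Of 14202 other genes tested in MC38, the 10 with the profile most like the mean of the members over the 12 MC38 libraries included 8 small RNAs. Of these 8, Rn7s2 is identical to Rn7s1 and the others passed the filter only through KO PBS, so nothing is read from the count. The measure was Pearson r, and it is dominated by the 3 KO PBS libraries. The first was the snRNA model Gm24407 (r = 0.96), at 6.19 ± 0.987 FPKM in KO PBS (SD, n = 3) and at most 1.59 FPKM in the other MC38 libraries. It was followed by Gm24601 (0.96) and Rn7s2 (0.96), and then by Gm24830, Gm26232 and Rnu1b6 (0.95, 0.95 and 0.94). These 3 are models of U1, the spliceosomal RNA that recognises the 5′ splice site. They are identical over 166 bases, so they count as 1 measurement. The rest were the antisense RNA 6330403L08Rik (0.94), Rnu5g, a model of the spliceosomal U5 RNA (0.93), Mpp2, which encodes a membrane scaffold protein (0.93), and Gm47299 (0.93). Over the 12 B16 libraries r for these 10 ran from -0.18 to 0.46 except for Rn7s2, at 0.78.

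Related structural RNAs, 9 of 22 listed being tested, were compared between KO and WT PBS tumours of MC38 by limma, where 23.4% of all genes were called (11.9% higher and 11.6% lower). Of these 9, 5 rose and none fell, with a median difference of 0.90 against 0.005 over all genes. This contrast uses the KO PBS libraries on which the members were selected, so nothing is read from the count. Of the 9, 8 pass the filter over the other 9 MC38 libraries, and 4 of these 8 rose. One of the 4 was Rn7s2, which shares its reads with Rn7s1. Rpph1, the RNA of RNase P and a relative of Rmrp, held 4.86 ± 0.268 FPKM in KO and 1.13 ± 0.359 FPKM in WT (SD, n = 3, limma adjusted p = 0.0182). Bc1, a polymerase III transcript best known from neurons, held 83.1 ± 15.1 and 33.3 ± 7.02 FPKM (SD, n = 3, limma adjusted p = 0.000924). The others were Rnu3a (U3, an RNA of rRNA processing, adjusted p = 0.0239 by limma) and Rnu2-10 (U2, adjusted p = 0.0309 by limma), the gene that passed the filter through KO PBS.

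The remaining 4 were positive without a call: Rnu1a1 (0.90), Rnu3b1 (0.60), Terc (telomerase RNA, 0.28) and Rnu73b (0.08). In MC38 KO tumours Bc1 held 70.6 ± 7.38 FPKM under anti-PD-1 (SD, n = 3), where the values of each member overlapped those of WT anti-PD-1. In B16 KO tumours Bc1 rose from 85.8 ± 13.7 to 272 ± 31.3 FPKM under anti-PD-1 (SD, n = 3, limma adjusted p = 2.95e-05). In that comparison 43.9% of all genes were called and 6 of 7 members were not. Rpph1 held 1.80 ± 1.40 FPKM in MC38 KO anti-PD-1 (SD, n = 3).

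Gene models that overlap ribosomal DNA repeats were 5, and 1 was called higher in MC38 KO PBS than in WT PBS: Gm26917, at 119 ± 51.5 against 55.8 ± 18.9 FPKM (SD, n = 3, limma adjusted p = 0.0208). AY036118 held 657 ± 72.7 and 422 ± 86.6 FPKM, CT010467.1 288 ± 43.4 and 162 ± 24.7 FPKM, and Gm42418 82.6 ± 38.3 and 81.8 ± 43.96 FPKM, none of them called. Lars2 gave no call either, at 0.818 and 0.917 FPKM. The ratio of 10.7 for n-R5-8s1 comes from a contrast on which that gene was selected, so the 5 are not compared with it.

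By class, with the members left out, 16 of 57 tested snRNA genes rose in MC38 KO PBS against WT PBS and none fell (limma, median difference 0.27). Only 40 of the 57 pass the filter over the 9 libraries outside KO PBS, and of these 6 rose (median 0.09), so most of the 16 entered the test through KO PBS. The 3 identical U1 models are among the genes that entered in this way. Of 173 snoRNA genes 18 rose and none fell (median 0.24), a share of 10.4% beside the 23.4% of all genes. Of 22 mitochondrial tRNA genes none rose and 7 fell (median -0.52). Of 497 tested noncoding genes of up to 200 bases 45 rose and 14 fell (median 0.12), and of the 434 that pass without KO PBS 29 rose and 14 fell (median 0.05). Of 37 replication-dependent histone genes, whose messages lack a poly(A) tail, 5 rose and none fell (median -0.04). Of 11598 protein-coding genes 1424 rose and 1489 fell (median -0.002).

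Summed FPKM of snRNA genes was 154 to 190 in MC38 KO PBS and 101 to 138 in the other MC38 libraries, without overlap. This sum includes the snRNA models that passed the filter only through KO PBS. The scaRNA sum did not overlap either, at 19.8 to 25.9 and 12.4 to 19.1. Among single genes tested in MC38, 732 of 14209 (5.15%) had every KO PBS library above the other MC38 libraries. The rRNA sum, which includes n-R5-8s1, overlapped, at 351 to 430 and 157 to 359. Sums of snoRNA genes overlapped, at 961 to 1069 and 765 to 975. The sum of misc_RNA genes without the members and Rn7s2 overlapped as well, at 140 to 180 in KO PBS and 51.4 to 219 in the others. With the members and Rn7s2 included it was 241 to 289 against at most 233 in the other MC38 libraries. The members were chosen for high values in KO PBS, and Rn7s2 shares its reads with Rn7s1, so nothing is read from that gap. The 7 members together held 151 to 155 FPKM in KO PBS and 11.4 to 40.9 FPKM in the other MC38 libraries.

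**Figure D4:**
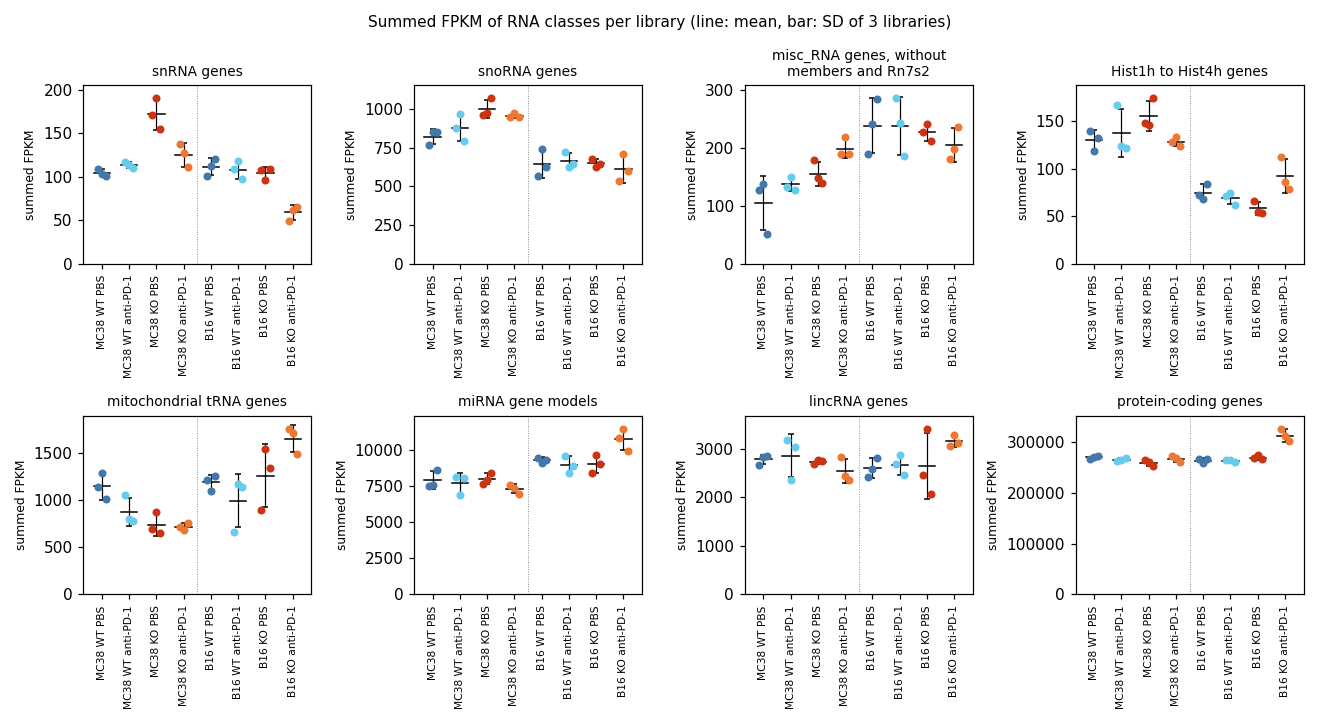
Summed FPKM per library for 8 RNA classes by group, with points for libraries, lines for means and bars for the SD of 3 libraries. The snRNA sum is highest in the 3 MC38 KO PBS libraries (154 to 190 against at most 138 in the other MC38 libraries) and lowest in B16 KO anti-PD-1 (49.8 to 65.0), while the snoRNA sum, and the misc_RNA sum without the members and Rn7s2, overlap between MC38 KO PBS and other MC38 groups.

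Messenger RNAs of proteins that work with the members were counted by list in MC38 KO PBS against WT PBS. Of 10 genes of SRP proteins and the SRP receptor, 5 rose and 1 fell (limma, median difference 0.24, background 23.4%). Srprb and Srpr, the subunits of the SRP receptor, held 16.5 ± 0.947 against 11.5 ± 0.780 FPKM (SD, n = 3, adjusted p = 0.00107) and 45.3 ± 1.54 against 33.1 ± 1.19 FPKM (SD, n = 3, adjusted p = 0.00165). Of 6 tested 7SK particle and P-TEFb genes 2 rose, Ccnt1 (the cyclin of P-TEFb, 0.39 ± 0.0544, limma adjusted p = 0.000895) and Mepce (the 7SK capping enzyme, 0.26 ± 0.0695, limma adjusted p = 0.0226). None of 7 Y RNA binding proteins was called.

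Of 10 tested RNase MRP and RNase P proteins 2 rose, Rpp38 and Rpp14, by 0.44 and 0.32 (limma adjusted p = 0.0317 and 0.00460). Of 13 RNA polymerase III subunits 0 rose and 2 fell, with a median difference of 0.12. Polr3k, among those that fell, did so by 0.31 (limma adjusted p = 0.0174). Of 17 polymerase III factors 4 rose and 3 fell. Gtf3c1, of the factor that binds tRNA genes, and Snapc4, of the factor that acts at the 7SK type of promoter, rose by 0.41 and 0.41 (limma adjusted p = 0.0148 and 0.0140). Of 12 polymerase I genes 3 rose and 1 fell, with Rrn3 at 0.43 and Taf1b at -0.54 (limma adjusted p = 0.00566 and 0.00609). Of 18 genes of 5.8S and large subunit processing 1 rose (Isg20l2, 0.46, limma adjusted p = 0.0101) and 2 fell (among them Las1l, -0.25, limma adjusted p = 0.0384).

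In the comparison of anti-PD-1 with PBS within MC38 KO tumours, 8.99% of all genes were called. The partner lists are small beside that share, so nothing is read from their counts. Srpr fell by 0.33 (limma adjusted p = 0.0134) and was the 1 called of 10 SRP and SRP receptor genes. Gtf3a, the 5S gene factor, fell by 0.52 (limma adjusted p = 0.0237). None of 6 7SK particle, 7 Y RNA binding, 10 RNase MRP and P and 13 polymerase III subunit genes was called. Of 57 snRNA genes 7 fell and none rose (median -0.28), under the same filter. Only 40 of the 57 pass it over the 9 MC38 libraries outside KO PBS, so nothing is read from this count. This comparison shares the KO PBS libraries with the one above.

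In B16 KO PBS against WT PBS, 0.47% of all genes were called. No gene of the SRP, 7SK, Y RNA, RNase MRP and P, polymerase III, polymerase I or 5.8S processing lists was among them. The call of n-R5-8s1 in that comparison was lost when any single library was left out. Within B16 KO tumours under anti-PD-1 against PBS, 9 of 18 genes of 5.8S processing were called, 6 higher and 3 lower, beside 43.9% of all genes. Exosc4, an exosome subunit, rose by 0.58 (limma adjusted p = 0.000748), and Dis3, the exosome nuclease, fell by 0.66 (limma adjusted p = 0.00166). Of 17 polymerase III factors 5 rose and 7 fell, with Bdp1, a subunit of the initiation factor TFIIIB, at 1.75 ± 1.14 against 6.30 ± 0.874 FPKM (SD, n = 3, limma adjusted p = 0.00150). The 10 RNase MRP and P genes gave 4 rises and no fall, among them Rpp21 (0.85) and Rpp25l (0.77, limma adjusted p = 0.00102 and 8.60e-05), while Rmrp differed by 0.01 ± 0.415 (SE, limma adjusted p = 0.983).

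As facts of the whole series, the estimated depth was 13210000 to 23760000 fragments per library, with MC38 KO PBS at 13210000 to 22500000. Pearson r between replicates was 0.956 to 0.984. Chek2 was lower in MC38 KO than in WT, by -0.99 ± 0.0986 under PBS and -0.61 ± 0.0986 under anti-PD-1 (SE, limma adjusted p = 0.000178 and 0.00375). In B16 it was lower by -0.37 ± 0.0865 under PBS (SE, limma adjusted p = 0.106) and -0.31 ± 0.0865 under anti-PD-1 (SE, limma adjusted p = 0.0154). The 8 melanocyte markers summed to 5104 to 6554 FPKM in B16 and at most 4.03 FPKM in MC38. The 8 epithelial and colon markers summed to 1.27 to 48.1 FPKM in MC38, with 0 to 5 of the 8 at a group mean of at least 1 FPKM.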

How the data were processed

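The authors deposited 1 table of FPKM values per library for 55335 Ensembl genes. STAR 2.5, Cuffnorm and the build mm10 are listed, with no role or order, in the submitters' processing notes. The labels state total RNA taken with Trizol, and neither strand, read length, poly(A) selection nor rRNA removal. The members carry no long poly(A) tail, so their FPKM reflects what library preparation kept as well as their amount in the tissue. How fragments were divided between overlapping or identical models is not given in the sources used here.

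Groups came from the labels' condition field. Symbols came from GENCODE M21 (55154 IDs matched, 181 did not). The log2(FPKM + 1) values went into limma 3.58.1 under R 4.3.3 (trend, 1 mean per group, Benjamini-Hochberg, adjusted p under 0.05). Genes had to reach 1 FPKM in 3 or more of the 12 libraries of a line (14209 genes in MC38, 13627 in B16). Comparisons between lines used all 24 libraries (15655 genes). The amount 1 fragment is worth was read from low values of 17413 genes with a single transcript, which gave 13210000 to 23760000 fragments per library. The fragment equivalents are estimates and need not be whole. Sequences were compared with BLAST 2.17.0 and Python 3.11.15. No 2 libraries of 276 pairs shared more than 0.0243% of nonzero values.

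Named genes were the members, their near-identical copies that reach 1 FPKM, the detected related structural RNAs and models overlapping rRNA, up to 2 called genes of each partner list per comparison with the largest difference, the 10 genes most like the members, and Chek2. Only some of these are printed, for the comparisons in which the members stood out. The models nested in the 7SL genes lie outside this rule and were picked once values were known. The members and lists were chosen with earlier results of these data known. The steps were tested on simulated data. Alternatives were a pseudocount of 0.1, filters, normalizations, the libraries fitted, and leaving out each library. Some sequences and 1 gene result are not reported here.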

Additional observations from a re-analysis of the deposited data

Results flagged for a closer look

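The effect of anti-PD-1 on n-R5-8s1 differed between the genotypes of B16 by the interaction term itself, 2.04 ± 0.333 on the log2(FPKM + 1) scale (SE, limma adjusted p = 0.00263). In WT tumours the gene went from 2.61 FPKM under PBS to 0.918 FPKM under anti-PD-1, and in KO tumours from 0.353 to 1.96 FPKM, with n = 3 in each group. The values rest on few reads, 2.30 to 18.2 fragment equivalents summed over the 3 libraries of a group. In this comparison 23.5% of all genes were called.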

How the results depend on the processing

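No direction reversed. The B16 call of n-R5-8s1 for KO against WT under PBS depended on the setting: 0 members were called with no filter, with quantile normalization, with only the 6 libraries of both groups, and without any 1 library (0 to 0). Its difference then ran from -1.32 to -1.59. Under quantile normalization 1 member (n-R5-8s1) was called in B16 KO against WT under anti-PD-1, and with protein-coding sums made equal 1 (n-R5-8s1) in B16 KO against WT averaged over treatments. Leaving out 1 library gave 0 to 1 called members in MC38 KO against WT under anti-PD-1, 0 to 1 in B16 KO against WT under anti-PD-1, 0 to 1 in B16 KO against WT averaged over treatments, and 1 to 2 in WT MC38 against WT B16. The cause was not tested. With a pseudocount of 0.1 the median difference of the members was 3.06 for MC38 KO PBS minus WT PBS and 3.38 for KO PBS minus KO anti-PD-1, since a smaller pseudocount widens differences of low values. In counts over all genes, B16 KO against WT under PBS gave 64 calls, 24 to 331 under other settings and 10 to 17 without 1 library. MC38 KO against WT under anti-PD-1 gave 1714, and 837 to 1283 without 1 library. MC38 anti-PD-1 against PBS in WT gave 0, and up to 79 under other settings. No paired analysis was possible because the labels give no replicate numbers. Depth limits Rny1, Rny3, Rmrp and, in B16, n-R5-8s1, which rest on a few fragments per library.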
